A study of Mus musculus with 5 samples.

Results

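A set of 9 inflammatory genes of macrophages was followed across the cells of the adult mouse heart, 9 of the 17902 genes listed in at least 1 of 5 droplet libraries. They were the cytokines Il1b and Tnf, the chemokines Ccl3, Ccl4, Cxcl2, Ccl6 and Ccl9, the signalling brake Rgs1 and the inflammasome sensor Nlrp3. The 9 were chosen by name, with their levels in these macrophages already known, so their differences are described and not tested. A gene not listed in a library counts as 0 there. Macrophages were cells with at least 3 UMIs of C1qa, a complement gene of tissue macrophages, and at least 1 UMI of Csf1r, the receptor that keeps them alive. A UMI (unique molecular identifier) stands for 1 captured transcript. Macrophages were divided by detection of Folr2, a folate receptor that marks resident cardiac macrophages, and Ccr2, the chemokine receptor that marks monocytes and the macrophages derived from them. Dendritic cells had at least 1 UMI of Xcr1. Endothelial cells, used as background, had at least 2 UMIs of Cdh5 and 1 of Pecam1 and fell in neither other class.

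The libraries came from enzymatically digested hearts depleted of cardiomyocytes and sorted on 3 surface proteins: cKit, a receptor tyrosine kinase, DDR2, a collagen receptor of fibroblasts, and CD45, common to leukocytes. The sorts were cKit+/DDR2+/CD45+ (1 library, 3898 cells), cKit+/DDR2+/CD45- (1 library, 1327 cells), cKit+/DDR2- (2 libraries, 436 cells in replicate 1 and 3020 in replicate 2) and cKit-/DDR2+ (1 library, 2280 cells). Beyond calling the cells adult, the labels give no age, and they give no treatment, genotype, strain or sex, nor how many animals were pooled. Because all but 1 sort had a single library, no p-value is given. Levels are CPM, UMIs summed over the cells of a class and scaled to a total of 1000000. Their 95% intervals cover counting error only, not the spread between cells or between animals.

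Libraries held 4047326 to 44847778 UMIs, with medians of 7529 to 10972 UMIs a cell. cKit+/DDR2+/CD45+ shared 190 cell barcodes with cKit+/DDR2- replicate 1 (4.87% and 43.6% of their cells), whereas the other 9 pairs of libraries shared at most 3. At the shared barcodes the median was 622.5 UMIs in cKit+/DDR2+/CD45+ and 12133.5 UMIs in replicate 1. Per barcode, replicate 1 had 13.4 to 24.1 times the UMIs (median 19.2), and the UMIs of the 2 libraries correlated at r = 0.93. The shared barcodes made up 0.280% of all UMIs of cKit+/DDR2+/CD45+ and 4 of its 3430 macrophages. In replicate 1 they were 7 of the 24 macrophages and 160 of the 336 endothelial cells. Leaving them out thus takes many deep cells from replicate 1. Without the shared barcodes the summed level of the 9 genes in whole libraries was 7024 CPM in cKit+/DDR2+/CD45+ (7006 CPM with them) and 761.1 CPM in replicate 1 (586.1 CPM with them). Comparisons of macrophages used replicate 2, which held 525 macrophages against 24 in replicate 1. Each main comparison that uses cKit+/DDR2+/CD45+ was also repeated without the shared barcodes, with no change in any count. Xist, the transcript of the inactive X chromosome, stood at 0.0700 CPM in cKit+/DDR2+/CD45+ macrophages and 455.2 CPM in those of replicate 2, and Gm42418, a predicted gene that overlaps ribosomal RNA, at 9743 and 65930 CPM. The sort, the animals and these library differences cannot be told apart.

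As background, interleukin-1β is made as a precursor after pattern recognition receptors activate NF-κB, and the NLRP3 inflammasome activates the caspase that matures it. Tumour necrosis factor and the chemokines are induced by the same signalling within minutes to hours, and the chemokines act on receptors of neutrophils (Cxcl2) or of monocytes and other leukocytes (Ccl3, Ccl4, Ccl6, Ccl9). In the heart, resident Folr2+ macrophages renew locally, while Ccr2+ macrophages are replenished from blood and are known for more inflammatory signalling.

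Of the 9 genes, 4 chemokine genes lie in 91.8 kb of chromosome 11 (GRCm38, chr11:83572919-83664683), in the order Ccl9, Ccl6, Ccl3 and Ccl4. Ccl9 and Ccl6 are 9.2 kb apart and Ccl3 and Ccl4 13.2 kb apart, with 54.8 kb between the pairs. Il1b lies at chr2:129364570-129371139 and overlaps the antisense gene Il1bos. Il1bos was listed separately, with 21 UMIs in cKit+/DDR2+/CD45+ and 11 in replicate 2. How reads in the overlap were assigned is not stated in the sources used here. Tnf is at chr17:35199381-35202007, Cxcl2 at chr5:90903871-90905938, Rgs1 at chr1:144242296-144249242 and Nlrp3 at chr11:59541568-59566956. The longest stretch shared by transcripts of any 2 of the 9 genes was 25 bases, between Ccl6 and Ccl9.

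The sequences upstream of Il1b, Cxcl2, Ccl9, Ccl6 and Ccl3, chosen because 4 of them differed widely between macrophage classes or libraries and Ccl3, in the same cluster as Ccl9 and Ccl6, did not, are shown 5′ to 3′ on the strand of the gene (RefSeq, GRCm38.p6). Each ends before the annotated gene and reaches 250 bases upstream of the RefSeq start. Capitals mark matches, on either strand, to an NF-κB motif (GGG, any 5 bases, CC) or the AP-1 motif TGANTCA:
Il1b: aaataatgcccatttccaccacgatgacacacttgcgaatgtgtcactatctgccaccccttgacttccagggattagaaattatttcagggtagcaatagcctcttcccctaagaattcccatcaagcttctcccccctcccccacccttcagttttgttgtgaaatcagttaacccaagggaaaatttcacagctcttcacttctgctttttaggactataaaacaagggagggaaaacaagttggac
Cxcl2: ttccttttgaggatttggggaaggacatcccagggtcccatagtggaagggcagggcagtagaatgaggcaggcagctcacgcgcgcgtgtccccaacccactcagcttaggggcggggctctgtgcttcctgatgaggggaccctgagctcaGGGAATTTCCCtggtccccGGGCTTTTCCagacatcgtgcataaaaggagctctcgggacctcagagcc
Ccl9: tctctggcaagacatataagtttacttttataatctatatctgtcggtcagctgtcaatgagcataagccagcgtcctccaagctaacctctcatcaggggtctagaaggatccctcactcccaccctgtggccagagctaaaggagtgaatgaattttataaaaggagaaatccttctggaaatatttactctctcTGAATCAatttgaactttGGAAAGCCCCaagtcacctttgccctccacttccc
Ccl6: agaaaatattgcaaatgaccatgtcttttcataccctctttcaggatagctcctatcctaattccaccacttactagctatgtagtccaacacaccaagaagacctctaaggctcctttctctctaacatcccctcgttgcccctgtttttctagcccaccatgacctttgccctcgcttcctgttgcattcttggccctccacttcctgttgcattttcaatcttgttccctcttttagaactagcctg
Ccl3: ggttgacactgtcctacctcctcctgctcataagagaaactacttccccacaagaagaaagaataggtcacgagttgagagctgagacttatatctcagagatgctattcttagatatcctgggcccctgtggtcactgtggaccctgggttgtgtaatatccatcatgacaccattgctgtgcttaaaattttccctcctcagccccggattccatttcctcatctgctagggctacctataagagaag
The windows are chr2:129371140-129371389 (minus strand) for Il1b, chr5:90903649-90903870 (plus) for Cxcl2, chr11:83578637-83578886 (minus) for Ccl9, chr11:83593088-83593337 (minus) for Ccl6 and chr11:83649379-83649628 (minus) for Ccl3. Cxcl2 held 3 matches to the NF-κB motif, of which 2 overlap on opposite strands at bases 97 to 87 before the start. Ccl9 held 1 NF-κB match and 1 AP-1 match, while Il1b, Ccl6 and Ccl3 held neither in these windows. Of 32851 windows of 250 bases, 45.8% held the NF-κB motif and 6.75% the AP-1 motif, so a match to the first is common. The matches are letters in a window and not evidence of binding.

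Over whole libraries, 8 of the 9 genes had the same order as the share of macrophages, and Tnf alone did not. Macrophages made up 88.0% of cKit+/DDR2+/CD45+ cells, 0.0754% of cKit+/DDR2+/CD45- cells (1 cell), 5.51% and 17.4% of the cKit+/DDR2- replicates and 0.482% of cKit-/DDR2+ cells (11 cells). Il1b reached 477.5 CPM with cKit+/DDR2+/CD45+. Its level was 74.1 CPM in replicate 1 of cKit+/DDR2-, 86.0 CPM in replicate 2 and 7.12 CPM in cKit-/DDR2+. It was not listed in cKit+/DDR2+/CD45-. Cxcl2, which recruits neutrophils, reached 1864 CPM with cKit+/DDR2+/CD45+ but 0.921 CPM with cKit+/DDR2+/CD45-. It was at 151.7 CPM in the first and 701.9 CPM in the other replicate of cKit+/DDR2-, and at 11.6 CPM in cKit-/DDR2+. cKit+/DDR2+/CD45- listed only 4 of the 9 genes, and all 15 UMIs of Ccl9 there were in its single macrophage. Tnf stood at 5.02 CPM there (60 UMIs, none in that macrophage), above the 3.23 CPM of cKit-/DDR2+.

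**Figure D1:**
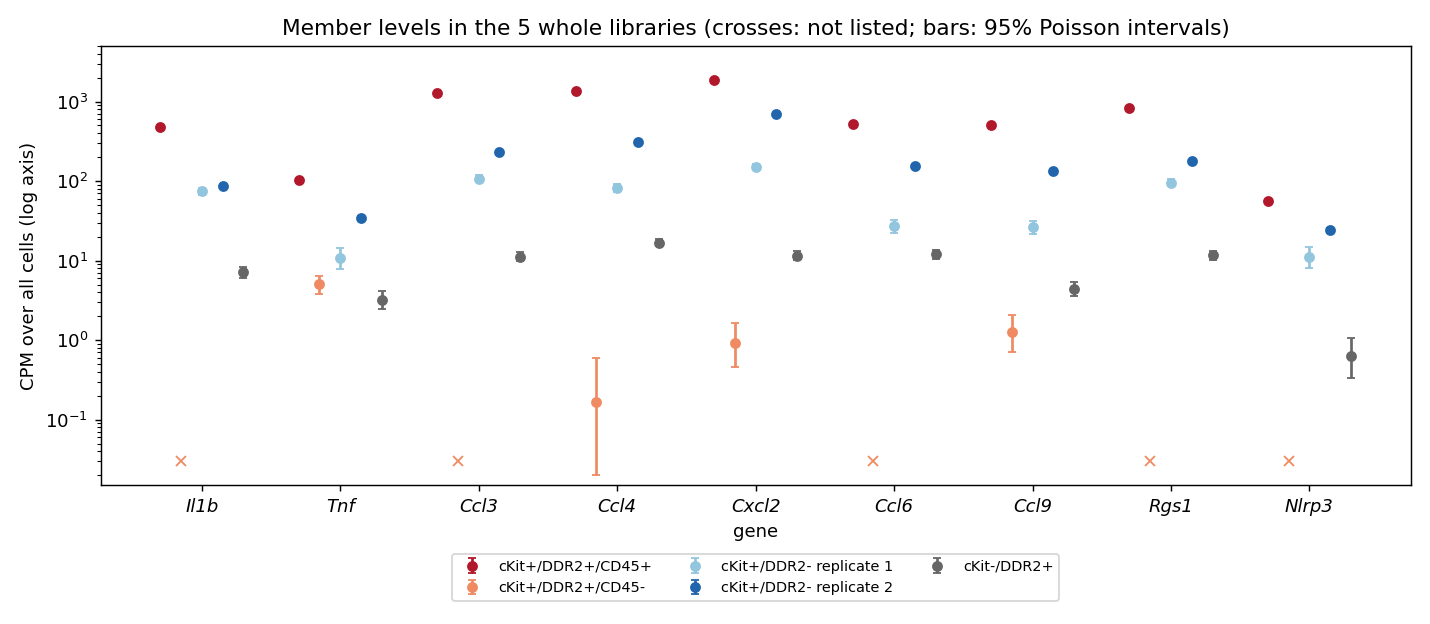
CPM of the 9 genes over all cells of each library, on a log axis, with 95% Poisson intervals; crosses mark genes not listed. cKit+/DDR2+/CD45+ is highest for each gene, as for Il1b at 477.5 CPM, and cKit+/DDR2+/CD45- is lowest for 8 of the 9, Tnf being the exception.

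Macrophages carried all 9 genes at least 2-fold above endothelial cells of the same library in each of the 3 libraries with 20 or more cells of both classes. Of all genes with 50 CPM in a group, 17.1% lay 2-fold or more above endothelial cells in the macrophages of cKit+/DDR2+/CD45+ and 21.6% below. In replicate 2 the shares were 18.1% above and 23.5% below, and in replicate 1 16.3% above and 25.3% below. Ccl3, which attracts monocytes and other leukocytes, stood at 1346 CPM in macrophages against 75.1 CPM in endothelial cells of cKit+/DDR2+/CD45+, and at 1258 CPM against 4.27 CPM in replicate 2. For Cxcl2, cKit+/DDR2+/CD45+ had 1940 CPM against 87.2 CPM, and replicate 2 had 3793 CPM against 12.4 CPM. The endothelial level was thus higher in cKit+/DDR2+/CD45+ for both genes, although the macrophage level of Cxcl2 was lower there.

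The same held for the genes that define the classes. C1qa had a UMI in 95.8% of the 96 endothelial cells of cKit+/DDR2+/CD45+ (median 9609.5 UMIs) and in 15.4% of the 1501 of replicate 2 (median 9491 UMIs). Folr2 had a UMI in 70.3% of macrophages (409.2 CPM) against 28.1% of endothelial cells (33.1 CPM) in cKit+/DDR2+/CD45+, and in 44.8% (273.6 CPM) against 1.27% (1.35 CPM) in replicate 2. With each cell thinned to 3000 UMIs, these shares were 48.4% against 12.4% and 33.1% against 0.270%. How far free RNA in the droplets enters the Folr2 calls of macrophages was not tested, and the comparison that rests most on them is given below with a stricter call as well. Ccr2 had little such background, with 1.10 and 0.924 CPM in endothelial cells of cKit+/DDR2+/CD45+ and replicate 2.

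**Figure D2:**
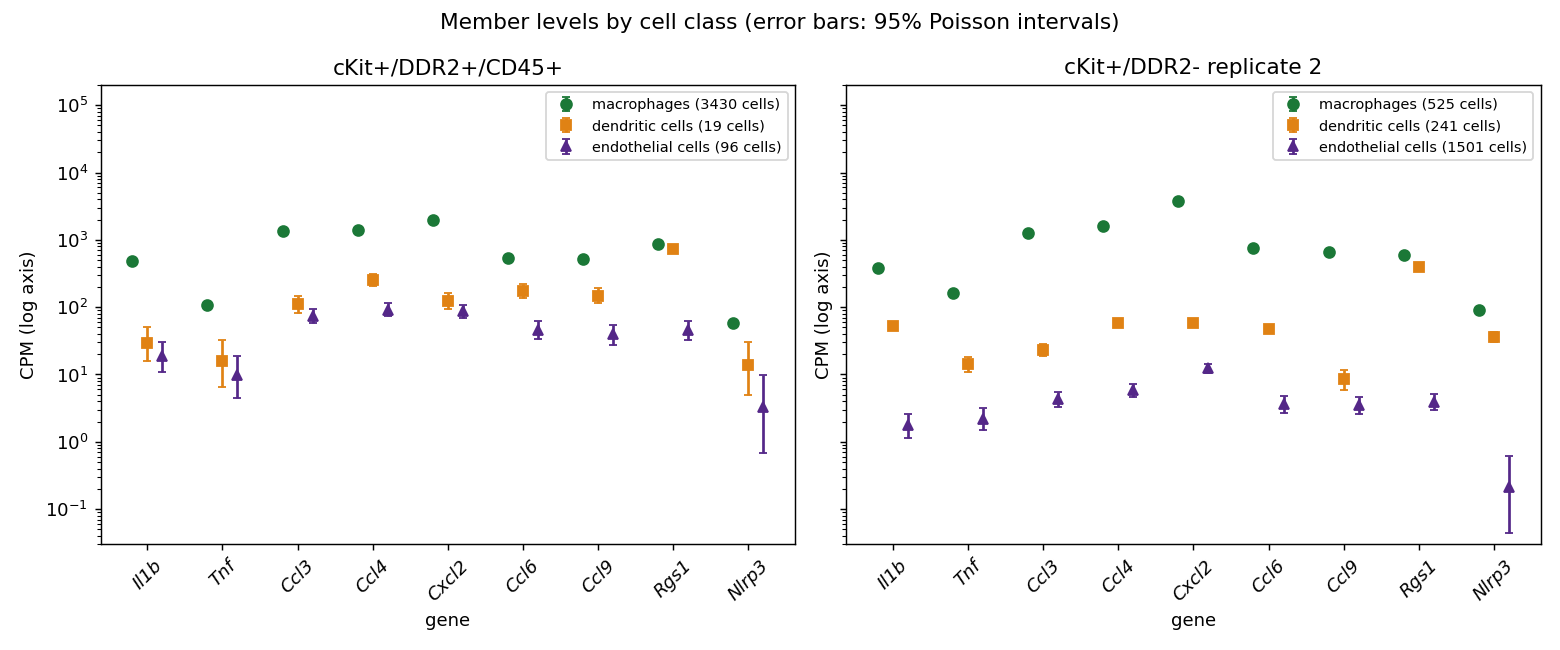
CPM of the 9 genes in macrophages, dendritic cells and endothelial cells of cKit+/DDR2+/CD45+ (left) and cKit+/DDR2- replicate 2 (right), on a log axis with 95% Poisson intervals. Macrophages lie above endothelial cells for all 9 genes, and endothelial levels are higher in cKit+/DDR2+/CD45+, as for Ccl3 at 75.1 against 4.27 CPM. Of the 19 dendritic cells in cKit+/DDR2+/CD45+, 13 also met the macrophage rule.

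Dendritic cells were compared in cKit+/DDR2- replicate 2, with 241 cells against 525 macrophages, since in cKit+/DDR2+/CD45+ most Xcr1+ cells were also macrophages by the rule. These 241 cells carried type 1 dendritic markers, with all 7 of the list detected at a sum of 5159 CPM against 268.7 CPM in macrophages. Xcr1 is 1 of the 7 and part of the rule, so its 263.9 CPM against 0.568 CPM in macrophages was fixed in advance. Of the 9 genes, 8 were at least 2-fold higher in macrophages (18.7% of all genes tested were higher and 8.68% lower). The exception was Rgs1, which speeds the shut-off of G proteins behind chemokine receptors. Rgs1 stood at 598.7 CPM (95% interval 578.0 to 620.0) in macrophages and 391.2 CPM (372.7 to 410.5) in dendritic cells, and at 3.91 CPM in endothelial cells. With cells thinned to 3000 UMIs it was seen in 43.4% of macrophages, 34.6% of dendritic cells and 0.944% of endothelial cells (54.9%, 51.0% and 3.26% unthinned, at median depths of 9563, 18563 and 9491 UMIs).

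Nlrp3 was the next nearest, at 91.6 CPM in macrophages and 36.0 CPM in dendritic cells, a log2 difference of 1.32, with 0.213 CPM in endothelial cells. Il1b stood at 380.4 CPM in macrophages and 53.2 CPM in dendritic cells (log2 difference 2.81). Cxcl2 stood at 3793 CPM in macrophages and 57.7 CPM in dendritic cells, where 98.4% of its UMIs were in the highest 10% of cells. Without the 3 dendritic cells that also met the macrophage rule, the dendritic level of Cxcl2 was 19.3 CPM and that of Ccl3 11.2 CPM, against 57.7 and 23.3 CPM with them. Both then lay within 3-fold of the 12.4 and 4.27 CPM of endothelial cells.

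Between macrophages of the 2 sorts, none of the 9 genes reached a 2-fold difference. Of 2921 genes tested, 0.514% were past it upward in cKit+/DDR2+/CD45+ and 0.787% downward. Cxcl2 came nearest, at 1940 CPM (1927 to 1953) in cKit+/DDR2+/CD45+ and 3793 CPM (3741 to 3846) in replicate 2, a log2 difference of -0.97. With Gm42418, Lars2, mitochondrial and ribosomal protein genes left out of the totals it was at 2541 and 5095 CPM, just past 2-fold. Nlrp3 stood at 57.6 and 91.6 CPM (-0.66) and Tnf at 107.7 and 163.8 CPM (-0.60). Rgs1 was at 856.4 CPM in macrophages of cKit+/DDR2+/CD45+, 598.7 CPM in those of replicate 2 (0.52), and Il1b at 490.4 and 380.4 CPM (0.37). Ccl6 (532.0 and 757.2 CPM, -0.51), Ccl9 (522.6 and 665.4 CPM, -0.35) and Ccl4 (1419 and 1605 CPM, -0.18) followed. Ccl3 differed by 0.10 (1346 and 1258 CPM), the smallest gap among the 9. The median of the 9 log2 differences was -0.35, against 0.02 over all genes tested.

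The replicates of cKit+/DDR2- themselves differed. Macrophages had Xist at 0 CPM in replicate 1 and 455.2 CPM in replicate 2, and Gm42418 at 7834 and 65930 CPM. In both, replicate 1 was nearer to cKit+/DDR2+/CD45+ (0.0700 and 9743 CPM). The part of these library differences in the values below was not tested. The 24 macrophages of replicate 1 had Cxcl2 at 1432 CPM and Il1b at 608.0 CPM (1266 and 853.7 CPM without the shared barcodes). Set against replicate 1, cKit+/DDR2+/CD45+ differed by 0.44 for Cxcl2, 0.77 for Ccl6, 0.85 for Ccl9, 0.37 for Tnf, -0.31 for Il1b and -0.45 for Rgs1 on the log2 scale. Apart from Nlrp3 (-0.46), each of the 9 genes had the opposite sign to that against replicate 2. Without the shared barcodes Tnf, at -0.11, was a second exception, and the values were 0.62 for Cxcl2 and -0.80 for Il1b. None of the 9 was past 2-fold (2.02% of all genes higher and 1.95% lower). In the same comparison 6 of the 7 resident macrophage genes (median 1.28) and 4 of 7 other chemokines tested were past 2-fold upward in cKit+/DDR2+/CD45+. Folr2 was detected in 70.3% of its macrophages and in 7 of the 24 (29.2%) of replicate 1. The part of this make-up was not tested. A difference between the sorts cannot be told apart from the spread between libraries. Of the 19 tested dissociation and immediate early genes, 3 were at least 2-fold lower in cKit+/DDR2+/CD45+ than in replicate 2. These were the heat shock genes Hspa1b (248.8 and 1218 CPM), Hspa1a (683.2 and 2473 CPM) and Dnajb1 (135.6 and 327.4 CPM), and the list's median log2 difference was -0.35 against 0.02 over all genes. Against replicate 1 none of the 19 was past 2-fold, and their median was 0.12. The part of the heat shock genes in the lower Cxcl2, Tnf and Nlrp3 against replicate 2 was not tested.

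Of the other chemokines, Cxcl10, an interferon-induced ligand of CXCR3, was lower in cKit+/DDR2+/CD45+ macrophages at 9.38 CPM, against 55.9 CPM in replicate 2, the only 1 of 8 tested past 2-fold. None of 11 tested NF-κB and feedback genes, 5 IL-1 and inflammasome genes, 7 sensors and adaptors, 5 receptors, 3 RGS genes and 7 resident macrophage genes was past 2-fold. The median of the NF-κB list was -0.40 against replicate 2 and 0.07 against replicate 1 (12 genes tested).

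The whole-class comparison covered cells of unlike make-up. Folr2+/Ccr2- cells were 52.8% of macrophages in cKit+/DDR2+/CD45+ and 36.0% in replicate 2, and Folr2-/Ccr2+ cells 11.5% and 23.6%. With the cells thinned to 3000 UMIs before the call, the shares were 45.5% and 30.1%, and 9.27% and 16.1%. Within Folr2+/Ccr2- macrophages, 2 of the 9 were past 2-fold upward in cKit+/DDR2+/CD45+ (1.03% of all genes) and 1 downward (0.963%). Of the 7 resident macrophage genes, 2 were at least 2-fold lower there, with a median log2 difference of -0.31. These were Lyve1, a hyaluronan receptor, at 300.3 CPM in cKit+/DDR2+/CD45+, against 634.5 CPM in replicate 2, and Cbr2 at 464.3 and 931.6 CPM. Within Folr2+/Ccr2+ macrophages 1 of the 7 was lower (median -0.45). The part of these differences within a class was not tested.

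The largest of these differences was that of Il1b. It stood at 280.5 CPM (273.5 to 287.5) in Folr2+/Ccr2- macrophages of cKit+/DDR2+/CD45+ and 41.0 CPM (32.9 to 50.6) in those of replicate 2, a log2 difference of 2.74. At 3000 UMIs a cell, 22.6% of 1794 and 6.38% of 188 such cells had an Il1b UMI (39.7% and 12.2% unthinned), with 6.74% and 0.405% of endothelial cells as background. The highest 10% of these Folr2+/Ccr2- cells held 79.7% of the Il1b UMIs in cKit+/DDR2+/CD45+ and 95.4% in replicate 2. For Rgs1, cKit+/DDR2+/CD45+ had 595.5 CPM, against 249.9 CPM in replicate 2 (1.25), and for Cxcl2 1780 against 3922 CPM (-1.14). Ccl6 (658.2 and 1219 CPM, -0.89) and Ccl9 (609.8 and 960.8 CPM, -0.66) were under 2-fold.

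In Folr2+/Ccr2+ cells Il1b differed as widely, with a log2 difference of 2.78, though on few UMIs in replicate 2. It stood at 448.1 CPM (602 cells) in cKit+/DDR2+/CD45+ and 64.3 CPM (46 cells, 34 UMIs) in replicate 2. Ccl6 was lower in these cells of cKit+/DDR2+/CD45+, at 572.3 and 1235 CPM (-1.11). Thus 1 of the 9 genes was higher (1.88% of all genes) and 1 lower (1.12%). In the classes without Folr2 none of the 9 was past 2-fold. The log2 difference of Il1b was 0.34 in Folr2-/Ccr2+ cells (0.526% of all genes higher and 1.4% lower) and 0.38 in Folr2-/Ccr2- cells (1.13% higher and 1.09% lower).

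Because more endothelial cells of cKit+/DDR2+/CD45+ had a Folr2 UMI, the Folr2+/Ccr2- comparison was repeated with at least 3 Folr2 UMIs required, a step added after the data were seen. Il1b then stood at 149.9 CPM in 1289 cells of cKit+/DDR2+/CD45+ and 8.98 CPM (14 UMIs) in 132 cells of replicate 2, a log2 difference of 3.92. Endothelial cells had Il1b at 18.8 CPM with cKit+/DDR2+/CD45+, against 1.78 CPM with replicate 2. Rgs1 stood at 433.7 and 232.3 CPM, which is under 2-fold, and Cxcl2 at 1524 and 3537 CPM. No second library of either sort held enough Folr2+ macrophages to repeat the comparison, replicate 1 having 2 Folr2+/Ccr2- cells.

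**Figure D3:**
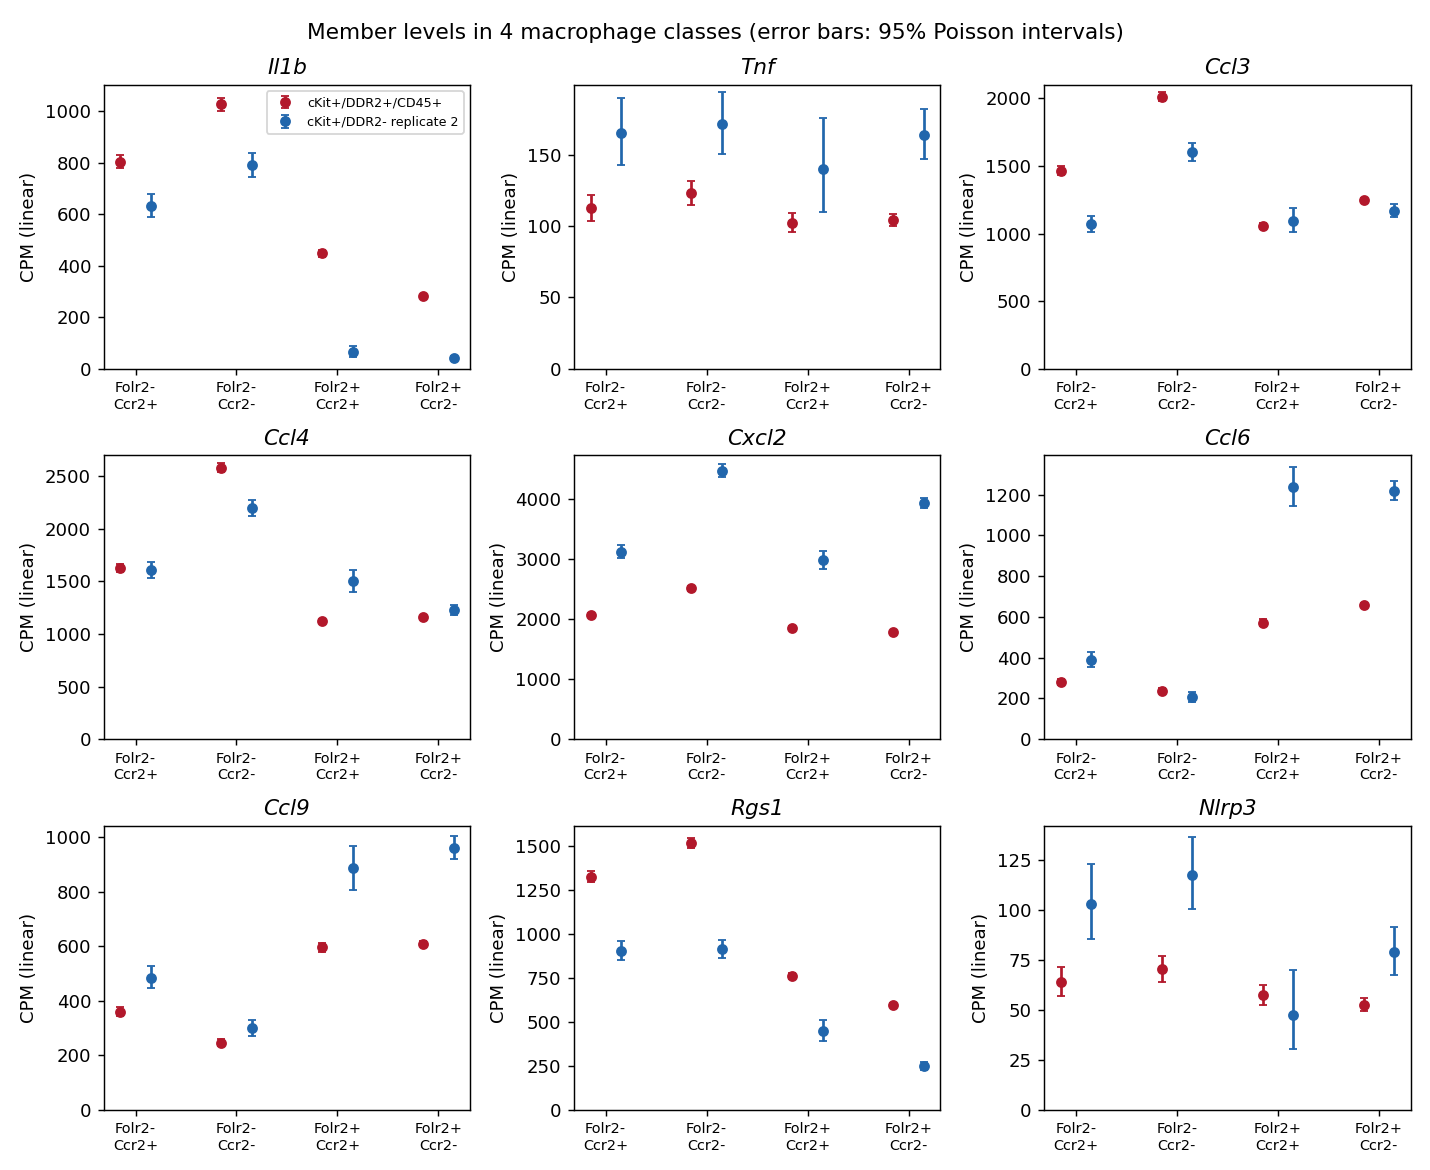
CPM of each of the 9 genes in 4 classes of macrophages, on linear axes, with 95% Poisson intervals, for cKit+/DDR2+/CD45+ and cKit+/DDR2- replicate 2. Il1b and Rgs1 are highest in the classes without Folr2 and Ccl6 and Ccl9 in those with it, and Cxcl2 is lower in cKit+/DDR2+/CD45+ in all 4 classes.

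Within cKit+/DDR2+/CD45+, the 9 genes fell on both sides of the Folr2 and Ccr2 split. Folr2-/Ccr2+ macrophages (395 cells) had Il1b at 802.8 CPM (778.1 to 828.0), against 280.5 CPM (273.5 to 287.5) in Folr2+/Ccr2- macrophages (1810 cells), and Rgs1 at 1327 against 595.5 CPM. The log2 differences were 1.51 and 1.16, and these 2 genes were the only ones at least 2-fold higher (1.55% of all genes). Ccl6 was at least 2-fold lower, at 281.0 CPM (266.5 to 296.1) against 658.2 CPM (647.6 to 669.0), a difference of -1.23 (4.14% of all genes were lower). Ccl9 differed the same way at 359.9 against 609.8 CPM (-0.76). Ccl6 and Ccl9 are chemokines of rodents that act through CCR1.

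The remaining 5 genes lay within 2-fold. Tnf stood at 112.4 CPM in Folr2-/Ccr2+ and 104.4 CPM in Folr2+/Ccr2- macrophages, with counting intervals that overlap (103.3 to 122.0 and 100.2 to 108.7). Ccl3 stood at 1464 and 1247 CPM, Ccl4 at 1624 and 1158 CPM, Cxcl2 at 2066 and 1780 CPM and Nlrp3 at 63.9 and 52.6 CPM. Of the 9 genes, then, 2 were past 2-fold upward, 1 downward and 6 neither.

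The split was wider for the same genes in cKit+/DDR2- replicate 2. Il1b stood at 632.2 CPM in 124 Folr2-/Ccr2+ and 41.0 CPM in 189 Folr2+/Ccr2- macrophages (3.91), and Rgs1 at 904.3 and 249.9 CPM (1.85). Ccl6 stood at 389.4 and 1219 CPM (-1.64) and Ccl9 at 484.8 and 960.8 CPM (-0.99). The female-specific transcript Xist stood at 739.4 CPM in Folr2-/Ccr2+ and 253.6 CPM in Folr2+/Ccr2- macrophages of replicate 2, and its part in these differences was not tested. The counts past 2-fold were again 2 higher (2.28% of all genes) and 1 lower (3.96%). Ccl3 (1068 and 1170 CPM, -0.13) and Cxcl2 (3120 and 3922 CPM, -0.33) were on the lower side here, unlike in cKit+/DDR2+/CD45+. Ccl4 stood at 1605 and 1230 CPM, Tnf at 165.0 and 164.1 CPM and Nlrp3 at 103.0 and 78.7 CPM. Il1b had 10 or more UMIs in 5.83% of Folr2-/Ccr2+ and 1.06% of Folr2+/Ccr2- cells thinned to 3000 UMIs, and none in 55.8% and 93.6%. In cKit+/DDR2+/CD45+ the shares with 10 or more were 8.12% and 1.62%, and with none 45.7% and 77.4%.

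Macrophages with neither marker were nearer to Folr2-/Ccr2+ than to Folr2+/Ccr2- cells for Il1b, Rgs1, Ccl4, Ccl6 and Ccl9. In cKit+/DDR2+/CD45+, the 623 Folr2-/Ccr2- macrophages had Il1b at 1025 CPM, Rgs1 at 1519 CPM, Ccl4 at 2579 CPM, Ccl6 at 238.1 CPM and Ccl9 at 246.3 CPM. Against Folr2+/Ccr2- cells this made 3 genes at least 2-fold higher (1.55%) and 2 lower (2.15%). None of the 9 was past 2-fold between Folr2-/Ccr2+ and Folr2-/Ccr2- cells (0.428% of all genes higher and 0.962% lower). In replicate 2, Folr2-/Ccr2- cells had 2 genes higher (2.12%) and 2 lower (3.2%) than Folr2+/Ccr2- cells, Il1b at 788.4 CPM, Rgs1 at 915.0 CPM, Ccl6 at 206.0 CPM and Ccl9 at 298.5 CPM. Their Ccl3 (1605 CPM) and Cxcl2 (4466 CPM) were nearer to Folr2+/Ccr2- cells there. The order of Il1b in cKit+/DDR2+/CD45+ was Folr2-/Ccr2-, Folr2-/Ccr2+, Folr2+/Ccr2+ and Folr2+/Ccr2-, with counting intervals that do not overlap. In replicate 2 the order was the same, but the lowest pair had overlapping intervals (44.5 to 89.9 and 32.9 to 50.6 CPM). These intervals leave out the spread between cells, and few cells carried most Il1b, so their overlap does not test the order.

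At equal depth Il1b and Ccl4 were lower, and Ccl6 higher, with each step in the number of Folr2 UMIs in both libraries. In macrophages of cKit+/DDR2+/CD45+ thinned to 3000 UMIs, Il1b stood at 817.5 CPM with no Folr2 UMI (1748 cells), 377.2 CPM with 1 (623 cells), 132.7 CPM with 2 to 3 (623 cells) and 58.2 CPM with 4 or more (395 cells). In replicate 2 it stood at 600.4, 64.8 and 10.1 CPM over the first 3 steps (342, 72 and 66 cells), and 31 cells with 4 or more Folr2 UMIs had none, with 39.7 CPM as the upper bound of the interval. Ccl6 moved the other way, with cKit+/DDR2+/CD45+ cells at 332.4, 542.0, 833.6 and 1030 CPM and replicate 2 cells at 382.1, 958.3, 1480 and 1849 CPM. Ccl4 stood at 1921, 1197, 772.1 and 638.8 CPM in cKit+/DDR2+/CD45+, against 1921, 1296, 934.3 and 763.4 CPM in replicate 2. The other 6 genes kept no order over all 4 steps in replicate 2. Ccl9 went with Ccl6 in cKit+/DDR2+/CD45+, at 367.8, 530.8, 721.2 and 806.8 CPM, and stood at 449.3, 888.9, 1278 and 1204 CPM in replicate 2. Rgs1 stood at 1255, 708.9, 352.1 and 330.8 CPM in cKit+/DDR2+/CD45+, against 784.6, 268.5, 262.6 and 311.8 CPM in replicate 2. Cxcl2 was lower with each step in cKit+/DDR2+/CD45+ (2301, 1819, 1330 and 1235 CPM) but had no such order in replicate 2 (3890, 2921, 4303 and 4161 CPM).

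**Figure D4:**
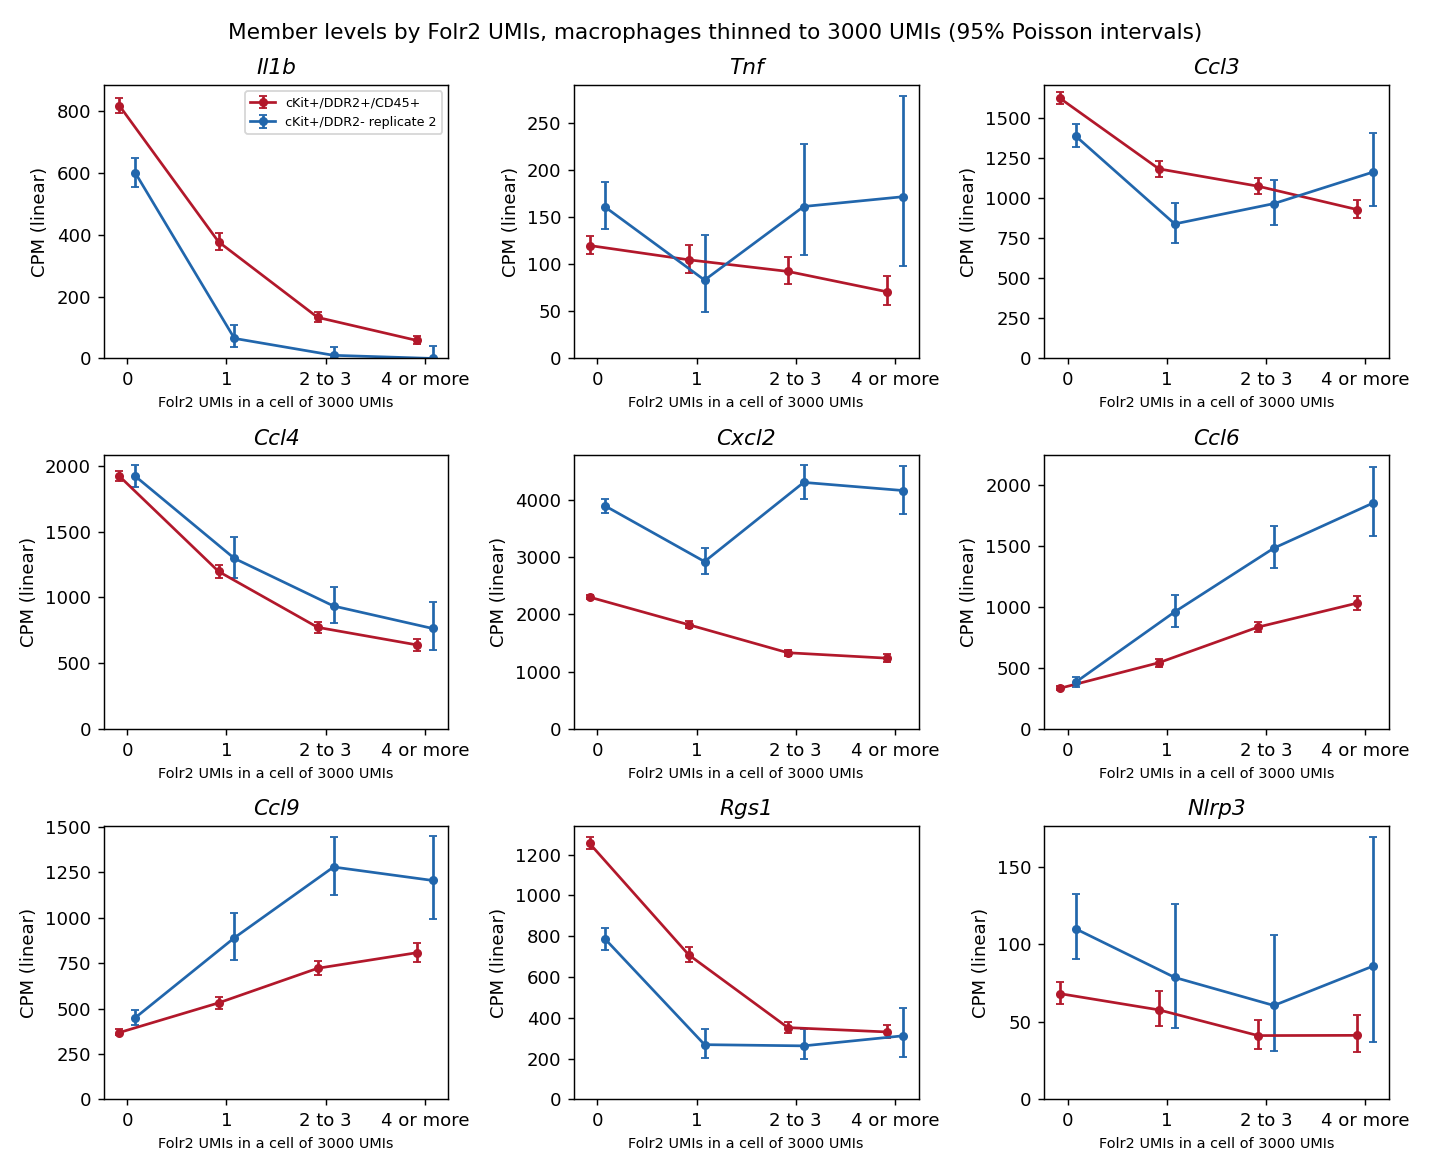
CPM of each of the 9 genes against the number of Folr2 UMIs in macrophages thinned to 3000 UMIs, on linear axes, with 95% Poisson intervals. Toward more Folr2 UMIs Il1b is lower and Ccl6 higher in both libraries, Ccl6 lying at 332.4 CPM with none and 1030 CPM with 4 or more in cKit+/DDR2+/CD45+.

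Other genes of the lists moved with the same split. All 7 resident macrophage genes were at least 2-fold lower in Folr2-/Ccr2+ than in Folr2+/Ccr2- cells of cKit+/DDR2+/CD45+, and 6 of 7 in replicate 2, Folr2 itself being part of the rule. F13a1, a coagulation factor subunit, stood at 128.9 and 1166 CPM, and Lyve1, a hyaluronan receptor, at 12.8 and 300.3 CPM, in cKit+/DDR2+/CD45+. Of 7 other chemokines tested, 3 were lower and none higher. These were Ccl24, which draws eosinophils, at 35.5 and 346.7 CPM, Ccl7 at 93.4 and 241.8 CPM, and Pf4 at 1177 and 2432 CPM.

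In replicate 2 the other chemokines held 5 lower and 1 higher of 9 tested. Ccl24 stood at 5.02 and 284.3 CPM in Folr2-/Ccr2+ and Folr2+/Ccr2- cells, and Ccl2, the main ligand of CCR2, at 307.3 and 773.6 CPM. Cxcl9, an interferon-γ target, had 69 UMIs (57.8 CPM) in Folr2-/Ccr2+ cells and none in Folr2+/Ccr2- cells of replicate 2. In cKit+/DDR2+/CD45+, Cxcr4 (38.9 and 96.6 CPM), Tlr7 (33.7 and 69.0 CPM) and Klf2 (404.4 and 926.2 CPM) were the only genes past 2-fold among receptors, sensors and immediate early genes, and all were lower. In replicate 2 none of these 3 lists was past 2-fold. None of the NF-κB, IL-1 and RGS lists was past 2-fold in either library (11 and 12, 6 and 6, and 3 and 3 genes tested). Neutrophil markers were near 0 in both classes of cKit+/DDR2+/CD45+, summing to 14.2 CPM in Folr2-/Ccr2+ and 14.6 CPM in Folr2+/Ccr2- cells, nearly all Csf3r, with S100a9 and Ly6g at 0. Type 1 dendritic markers summed to 547.7 and 293.0 CPM in these classes, and their part in the difference was not tested.

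Levels of the 9 genes were also compared cell by cell. Over the 3430 macrophages of cKit+/DDR2+/CD45+, the highest Pearson correlations of log levels between members were those of Ccl6 with Ccl9 (r = 0.55), Ccl3 with Ccl4 (0.52) and Il1b with Rgs1 (0.42). Over the 525 macrophages of replicate 2 they were 0.64, 0.60 and 0.35, and Cxcl2 reached 0.54 there with Ccl3, 0.41 with Ccl4, 0.38 with Tnf and 0.35 with Nlrp3. Ccl6 with Ccl9 and Ccl3 with Ccl4 are the neighbours on chromosome 11 described above. Between these chromosome 11 pairs the values were below 0: Ccl6 had r of -0.10 with Ccl3 and -0.18 with Ccl4 in cKit+/DDR2+/CD45+, although all 4 genes lie in the same 91.8 kb. Il1b correlated at -0.28 with Ccl6 and -0.32 with Ccl9, and at -0.35 and -0.30 in replicate 2. These are descriptions over cells that share a library and differ in depth.

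**Figure D5:**
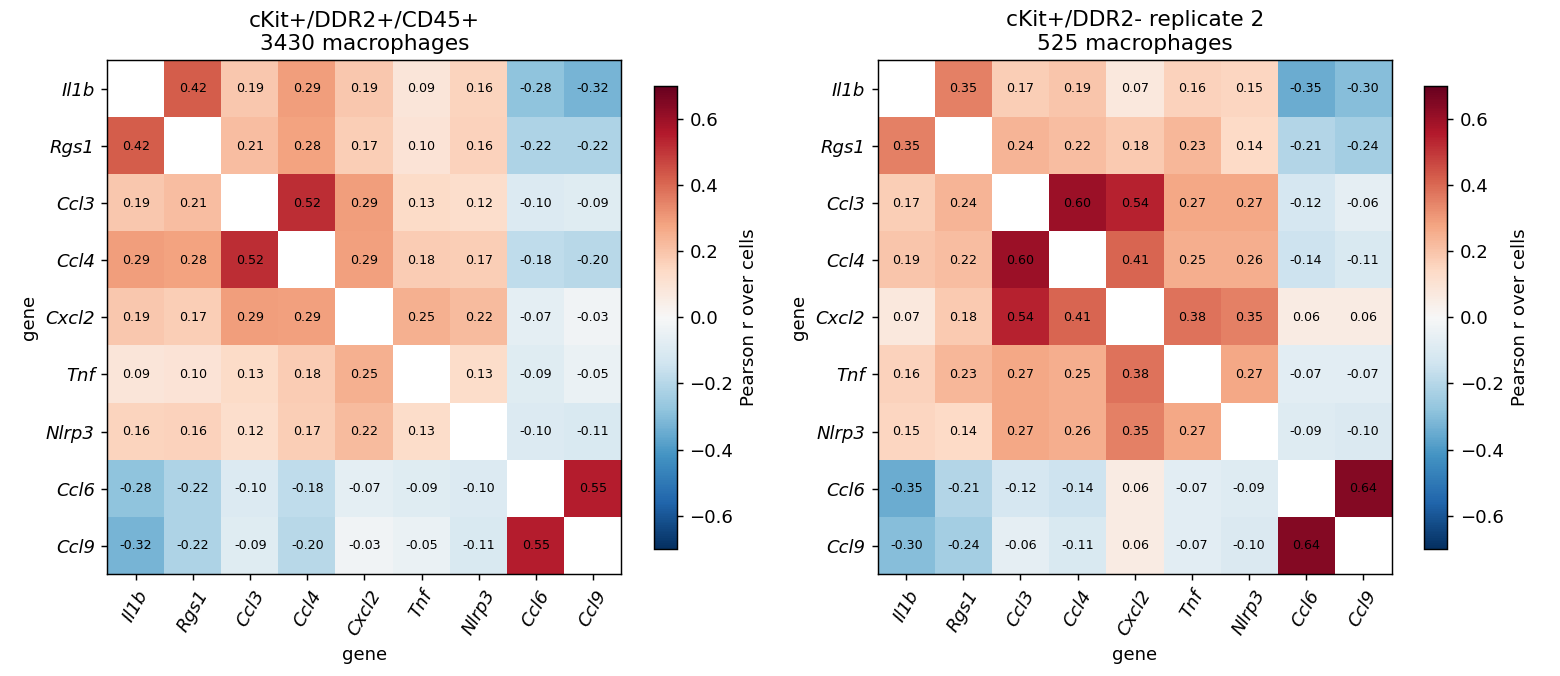
Pearson r of log levels between the 9 genes over macrophages of cKit+/DDR2+/CD45+ (left, 3430 cells) and cKit+/DDR2- replicate 2 (right, 525 cells). Ccl6 with Ccl9 and Ccl3 with Ccl4 are the strongest pairs in both (0.55 and 0.52 on the left), and Il1b is negative with Ccl6 and Ccl9.

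Among 7445 genes detected in at least 10% of cKit+/DDR2+/CD45+ macrophages, those most like Il1b were Cd74, H2-Ab1 and H2-Aa (r = 0.47, 0.47 and 0.46, and 0.45, 0.46 and 0.46 in replicate 2), which serve MHC class II antigen presentation. Cxcl2 was most like Cxcl1, its near relative, Nfkbia, which encodes the NF-κB inhibitor IκBα, and Ccrl2 (0.47, 0.45 and 0.38, and 0.60, 0.63 and 0.49 in replicate 2). Ccl6 was most like Ccl9, F13a1 and Folr2 (0.55, 0.51 and 0.50, and 0.64, 0.62 and 0.63 in replicate 2). Ccl9 was most like Ccl6, F13a1 and Folr2 (0.55, 0.45 and 0.44, and 0.64, 0.50 and 0.52 in replicate 2). Rgs1 was most like Il1b, Runx3 and Cd74 (0.42, 0.41 and 0.40, but 0.35, 0.26 and 0.23 in replicate 2). Ccl3 came with Ccl4, Cxcl2 and Atf3 (0.52, 0.29 and 0.28, and 0.60, 0.54 and 0.48 in replicate 2). Ccl4 came with Ccl3, Il1b and Cxcl2 (0.52, 0.29 and 0.29, and 0.60, 0.19 and 0.41 in replicate 2). Tnf was most like Cxcl2, Nfkbia and Lcp1 (0.25, 0.23 and 0.20, and 0.38, 0.39 and 0.09 in replicate 2). Nlrp3 was most like Cxcl2, Pim1 and Ccrl2 (0.22, 0.21 and 0.20, and 0.35, 0.34 and 0.23 in replicate 2).

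Few cells carried most Il1b. The highest 10% of macrophages held 65.8% of its UMIs in cKit+/DDR2+/CD45+ and 71.4% in replicate 2, against 35.5% and 38.1% for Ccl9. The median macrophage of cKit+/DDR2+/CD45+ had 62.3 CPM and that of replicate 2 had 0, and the highest had 17990 and 9686 CPM. At 3000 UMIs a cell, Il1b was seen in 34.0% of macrophages of cKit+/DDR2+/CD45+ and 27.6% of replicate 2 (52.8% and 37.7% unthinned). Of the cKit+/DDR2+/CD45+ macrophages with Il1b, 75.8% also had Rgs1, against 51.2% of those without it, and 53.6% had Ccl6, against 68.1%.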

How the data were processed

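Per the labels' protocols, RNA of sorted cardiac interstitial cells was captured with 10x Chromium single-cell 3′ chemistry. Per the submitters' processing notes, Cell Ranger (version not given in the sources used here), build mm10 and Seurat 4.0.4 were used. The deposited values are on a natural log scale, taken after each cell's UMIs were set to a total of 10000 and 1 was added. Whole UMIs were recovered for 100% of values (tolerance 0.01), and classes were summed to CPM (counts per 1000000). Differences are log2 ratios after adding 1 CPM; a gene is past the threshold at 2-fold with 50 CPM in 1 group. Intervals are exact (95% Poisson or Clopper-Pearson). No cell was removed and no doublet caller was run; alternatives leave out mixed or very deep cells. Cells were thinned with a fixed seed, and shares come from cells with at least 3000 UMIs. The procedure was tested on simulated Poisson counts with known folds, which had no spread between cells, libraries or animals and no free RNA. Python 3.11.15, numpy 2.4.6, scipy 1.17.1 and pandas 2.3.3 were used. Named genes are the 9 members, list genes past 2-fold (up to 4 a list and direction) and the 3 most correlated genes of each member. Members, lists and rules were chosen with earlier results of these data known. Positions are from GENCODE M21, and upstream sequence was found for 7 of the 9 genes. The counting's use of strand is not stated in the sources used here.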

Additional observations from a re-analysis of the deposited data

Results flagged for a closer look

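Ccl3 and Cxcl2 had opposite signs in the 2 libraries for the same contrast, Folr2-/Ccr2+ minus Folr2+/Ccr2- macrophages. Ccl3 differed by 0.23 on the log2 scale in cKit+/DDR2+/CD45+ and by -0.13 in cKit+/DDR2- replicate 2, and Cxcl2 by 0.21 and -0.33. All 4 counting intervals exclude 0, all 4 differences are under 2-fold, and with 1 library each the difference was not tested.

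Il1b was also present in cells that belong to none of the classes. It stood at 414.2 CPM in 366 such cells of cKit+/DDR2+/CD45+ (median 675 UMIs) and at 46.7 CPM in 756 of cKit+/DDR2- replicate 2. Endothelial cells of these libraries had 18.8 and 1.78 CPM. Of the 366 cells, 186 lay at barcodes shared with cKit+/DDR2- replicate 1, and 50 of the 366 had at least 3000 UMIs. In cKit+/DDR2+/CD45+, 9 cells held 336 of the 369 UMIs, and in replicate 2, 18 cells held 260 of 280. Of the 9 cells, 8 had Ptprc, 9 Lyz2, 6 Ccr2, 8 Cd209a, a gene of type 2 dendritic cells, 7 the macrophage gene Csf1r and 4 C1qa. Of the 18, 18 had Ptprc, 17 Lyz2, 15 Ccr2, 12 Cd209a, 12 Csf1r and 6 C1qa. None of the 27 had S100a8 or S100a9, and none had Cdh5. The genes counted in these cells were chosen after their Il1b was seen.

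Tnf stood at 11.9 CPM (95% interval 8.93 to 15.5) in endothelial cells of cKit+/DDR2+/CD45- without a UMI of Npr3, the natriuretic peptide clearance receptor, and at 0.685 CPM (0.187 to 1.76) in those with it. The library held 1 macrophage, which had no Tnf.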

How the results depend on the processing

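The counts of the 9 genes past 2-fold were 0 higher and 0 lower between macrophages of cKit+/DDR2+/CD45+ and cKit+/DDR2- replicate 2, 2 and 1 between Folr2-/Ccr2+ and Folr2+/Ccr2- macrophages, 8 and 0 between macrophages and dendritic cells and 9 and 0 between macrophages and endothelial cells. Of 98 alternative counts and sums, 90 were equal or within 1.5 times of these. All 9 genes reached 50 CPM in a group of each main comparison, so leaving out that minimum could not change a count. The 90 include those settings. Between the sorts, totals without Gm42418, Lars2, mitochondrial and ribosomal protein genes gave 1 lower, Cxcl2. Within Folr2+/Ccr2- macrophages 2 were higher and 1 lower, and with 3 Folr2 UMIs required, chosen after seeing the data, 1 higher and 1 lower. Set against Folr2-/Ccr2- macrophages, Folr2-/Ccr2+ macrophages had 0 higher and 0 lower, and the log2 difference was -0.35 for Il1b, 0.24 for Ccl6 and -0.19 for Rgs1, opposite in sign to that against Folr2+/Ccr2-. Without the shared barcodes, also chosen after seeing the data, the summed level in replicate 1 was 761.1 CPM, against 586.1 CPM with them. The cause of these moves was not tested. Of 432 alternative log2 differences of single genes, 272 kept within the counting interval of the main value, 157 moved outside it without reversing a called sign and 3 reversed one. Only genes past 2-fold in the main result could count as reversed. Between the sorts none of the 9 was, so the sign changes against replicate 1 are not among the 3. No paired test was made, as no result comes from a test. The sorts share no more than 1 replicate number, whereas comparisons between cell classes were made within single libraries. Single libraries limit every comparison between sorts, and no interval covers the spread between animals. The intervals of levels do not cover the spread between cells either. Genes such as Nlrp3 and Tnf rest on few UMIs a cell, so shares of cells with them follow depth.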

Other observations

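The Tnf difference by Npr3 in endothelial cells had the same sign in all 5 libraries. Npr3, which marks endocardial cells among cardiac endothelial cells, was chosen after Tnf levels in whole libraries had been seen. Cells without and with an Npr3 UMI had Tnf at 6.90 CPM (442 cells) and 0.746 CPM (1059 cells) in cKit+/DDR2- replicate 2, and at 5.46 CPM (183 cells) and 1.72 CPM (153 cells) in replicate 1. In cKit-/DDR2+ they had 7.23 CPM (1049 cells) and no UMI (71 cells, upper bound 5.98 CPM), and in cKit+/DDR2+/CD45+ 18.5 CPM (62 cells) and no UMI (34 cells, upper bound 8.78 CPM). The counting intervals of the 2 classes overlap in replicate 1, cKit-/DDR2+ and cKit+/DDR2+/CD45+, and do not in replicate 2 and cKit+/DDR2+/CD45-. In cKit+/DDR2+/CD45- the 54 UMIs outside Npr3+ cells were spread over 39 cells. In the same 560 cells Ccl4 had 1 UMI, Cxcl2 7 and Ccl9 none. Il1b, Ccl3, Ccl6, Rgs1 and Nlrp3 were not listed in that library and count as 0 for that reason only. In cKit-/DDR2+, by contrast, 57 of 59 endothelial Il1b UMIs were in 1 cell, and in cKit+/DDR2- replicate 1, 95 of 100.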
